A study of Mus musculus with 5 samples.

Results

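The genes described here are 36 muscle genes of the mouse, 22 of striated muscle and 14 of smooth muscle, among 19938 genes measured in gut tissue. They were chosen by name as muscle genes, with measured values of the same 5 arrays in view, so that the differences reported for them describe the arrays and carry no test. Each gene was read from a probe set that named no other gene, and all 36 had 1 such probe set. The striated genes are called so by their textbook role, and most of them lay at low signal in this tissue.

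Total RNA from the gut of male ddY mice, an outbred stock, aged 5 weeks was hybridised to Affymetrix Mouse Gene 1.0 ST arrays. There were 5 groups with 1 array each. Every mouse received 2 oral administrations 0.5 h apart, and tissue was taken 4 h after the second. RNA came from a portion of each gut. The sources used here do not say if the RNA of an array is from 1 mouse or from several.

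The group GA+GA received gum arabic, the vehicle, both times and is the control. LG21+GA received Lactobacillus gasseri OLL2716 and then gum arabic. GA+Asp received gum arabic and then aspirin, an inhibitor of cyclooxygenases. Tep+Asp received teprenone, a mucosal protective drug, and then aspirin, and LG21+Asp received the bacterium and then aspirin. No group was left without an oral dose.

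Striated muscle contracts through sarcomeres, in which thick filaments of myosin pull on thin filaments of actin carrying troponin, and calcium released from the sarcoplasmic reticulum starts the movement. Smooth muscle has no sarcomeres and no troponin, and its myosin is switched on by phosphorylation of a light chain by myosin light chain kinase. The muscle wall of the stomach and intestine is smooth, whereas the mouse oesophagus has a coat of striated muscle. In whole tissue, fewer cells of a type and less RNA per cell cannot be told apart.

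Values are given on the log2 scale of the deposited table, and a difference is the value of the first array named minus that of the second. The array medians lay between 6.95 and 6.98. Xist, which male tissue does not express, stood at 4.91 in GA+GA, and every member lay above it on every array. The table holds no detection calls, so a striated gene near 6 may be little above background. With 1 array per group no difference could be set against the spread between animals, which limits the precision of every value. Exact ties are common in this table, and 25 of the 36 members had the same value on at least a pair of arrays. The gastric epithelium list, with 13 genes, had a median level of 13.28 on each array, so the tissue labelled gut carried stomach transcripts.

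Promoter sequences are shown first for the genes on which the results turn, so that the members that stood apart can be read beside close relatives that did not. RefSeq promoter windows of assembly GRCm38.p6 were found for 28 members, 18 striated and 10 smooth. Each window printed is the 250 bases before the transcription start, 5′ to 3′ on the gene's own strand. Capitals mark matches to a CArG box, the site of serum response factor, to a MEF2 site, and to the E box CAGCTG, a site of myogenic factors. All were searched on both strands, and CAGCTG reads the same on each. The CArG box was searched as CCWWWWWWGG, where W is A or T, with no mismatch allowed. Near matches therefore stay in small letters.

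Myh1, Myh4 and Myh8 encode skeletal myosin heavy chains and lie in 1 cluster on chromosome 11 in the order Myh3, Myh2, Myh1, Myh4 and Myh8. The start of Myh1 is 37.7 kb from that of Myh4, and the start of Myh4 is 39.3 kb from that of Myh8. Their windows are chr11:67199852-67200101 for Myh1, chr11:67237562-67237811 for Myh4 and chr11:67276874-67277123 for Myh8, all on the plus strand.
Myh1: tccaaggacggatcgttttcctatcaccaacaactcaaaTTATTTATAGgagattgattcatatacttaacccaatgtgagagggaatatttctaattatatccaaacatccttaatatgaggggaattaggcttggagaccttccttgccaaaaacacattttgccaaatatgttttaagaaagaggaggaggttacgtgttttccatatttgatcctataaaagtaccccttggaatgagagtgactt
Myh4: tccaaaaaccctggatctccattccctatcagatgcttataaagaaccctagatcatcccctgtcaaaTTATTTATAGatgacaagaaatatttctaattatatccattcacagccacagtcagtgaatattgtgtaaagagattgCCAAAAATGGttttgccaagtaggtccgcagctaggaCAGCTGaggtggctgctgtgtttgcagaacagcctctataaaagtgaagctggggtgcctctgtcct
Myh8: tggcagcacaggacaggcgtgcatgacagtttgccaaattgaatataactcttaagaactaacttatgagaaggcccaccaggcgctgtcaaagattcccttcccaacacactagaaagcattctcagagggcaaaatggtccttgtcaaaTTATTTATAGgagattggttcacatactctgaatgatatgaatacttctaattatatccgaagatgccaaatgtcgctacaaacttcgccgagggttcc

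All 3 windows held the MEF2 match TTATTTATAG, which began 211 bases before the start in Myh1, 182 in Myh4 and 99 in Myh8. The same 10 letters were present in the windows of 35 of 27025 genes on either strand. They overlap a reverse match to TATAAA, a sequence also searched for. Myh1 and Myh8 were higher in GA+Asp and Myh4 was not, as the values given with the thick filament show.

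Acta1 encodes skeletal muscle actin, Ckm the muscle creatine kinase that regenerates ATP, and Acta2 the smooth muscle actin of vessels and viscera. Their windows are chr8:123894776-123895025 on the minus strand for Acta1, chr7:19410844-19411093 on the plus strand for Ckm and chr19:34255374-34255623 on the minus strand for Acta2. They are shown because Acta1 and Ckm stood apart in GA+Asp, while Acta2 was level on all arrays.
Acta1: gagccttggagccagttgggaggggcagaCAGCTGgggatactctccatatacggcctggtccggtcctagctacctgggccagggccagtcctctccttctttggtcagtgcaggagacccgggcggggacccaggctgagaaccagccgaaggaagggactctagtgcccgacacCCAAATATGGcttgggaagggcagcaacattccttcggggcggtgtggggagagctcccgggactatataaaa
Ckm: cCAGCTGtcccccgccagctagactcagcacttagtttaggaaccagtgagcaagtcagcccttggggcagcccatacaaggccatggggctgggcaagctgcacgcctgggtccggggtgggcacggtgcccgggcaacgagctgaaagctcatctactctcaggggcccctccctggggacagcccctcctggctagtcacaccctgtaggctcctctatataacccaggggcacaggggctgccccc
Acta2: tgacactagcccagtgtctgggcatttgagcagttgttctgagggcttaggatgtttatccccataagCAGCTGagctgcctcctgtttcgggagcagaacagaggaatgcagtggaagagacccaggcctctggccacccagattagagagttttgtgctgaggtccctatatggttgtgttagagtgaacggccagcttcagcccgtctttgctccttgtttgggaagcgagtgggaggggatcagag

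The E box CAGCTG was present in 9 of the 18 striated windows and 4 of the 10 smooth ones, against 14.7% of all genes with a window. An exact CArG box was present in 2 striated windows, those of Acta1 and Myh4, and in 1 smooth window, against 1.62% of all genes. The Acta2 window holds ccctatatgg and ccttgtttgg, each different from the pattern at a single letter. They were not counted, so the search does not show that Acta2 lacks such a site. The MEF2 site was present in 3 striated windows and 1 smooth window, against 3.42% of all genes. TATAAA was present in 7 striated windows and 1 smooth window, against 14.3% of all genes. These matches describe the letters in the windows and do not show that a factor is bound.

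The first comparison, GA+Asp against GA+GA, asked how muscle genes differed after aspirin without a pretreatment. Of the 22 striated genes, 16 were higher in GA+Asp, 1 was lower and 5 were equal, against 42.4% of all genes higher. The largest differences, from 0.33 to 0.91, were those of 6 genes, Myh8, Acta1, Myh1, Myl1, Ckm and Atp2a1. In each, GA+Asp exceeded every one of the other 4 arrays by 1.2-fold or more. The 14 smooth genes differed by at most 0.13, with 6 higher, 5 lower and 3 equal. Among genes with a mean level above the midpoint of the gene means, where all 14 fall, 58.3% were higher.

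Among the thick filament genes, Myh8, which encodes the perinatal myosin heavy chain (probe set 10377148), stood at 6.34 in GA+GA, 6.38 in LG21+GA, 7.24 in GA+Asp, 6.30 in Tep+Asp and 6.38 in LG21+Asp. GA+Asp was thus the high array, 1.87-fold above GA+GA, and the other 4 arrays spanned 0.08. Myh1, the fast IIx myosin heavy chain (probe set 10377087), stood at 5.28 in GA+GA, 5.15 in LG21+GA, 6.06 in GA+Asp, 5.08 in Tep+Asp and 5.30 in LG21+Asp. It was 1.72-fold higher in GA+Asp than in GA+GA, and the other 4 arrays spanned 0.23, the widest such span among the striated genes. Myl1, the fast essential light chain (probe set 10355259), stood at 5.78 in GA+GA, 5.78 in LG21+GA, 6.27 in GA+Asp, 5.78 in Tep+Asp and 5.72 in LG21+Asp. The difference of GA+Asp from GA+GA was 0.49.

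The other thick filament genes were nearer level. Myh4, the fast IIb myosin heavy chain, stood at 5.85 in GA+GA, LG21+GA and GA+Asp, at 5.89 in Tep+Asp and at 5.86 in LG21+Asp. Its values were therefore nearly level, although its gene lies between Myh1 and Myh8 in the cluster. Myh2, the IIa heavy chain, stood at 6.68 in GA+Asp and at 6.46 on the other 4 arrays, a difference of 0.22 that did not reach 1.2-fold. Myh3, the embryonic heavy chain, stood at 5.33 in GA+GA and GA+Asp, and the arrays other than GA+Asp spanned 0.01. Mylpf, the fast regulatory light chain, differed by 0.05 between GA+Asp and GA+GA.

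Among the thin filament genes, Acta1 (probe set 10582592) stood at 7.94 in GA+GA, 7.85 in LG21+GA, 8.74 in GA+Asp, 7.93 in Tep+Asp and 7.90 in LG21+Asp. It was 1.74-fold higher in GA+Asp than in GA+GA, while the other 4 arrays spanned 0.09. The troponin genes, which encode the calcium switch of the thin filament, did not share that size of difference. Tnnt3, the fast troponin T, differed by 0.13 and Tnnc2, the fast troponin C, by 0.08. Tnnt1, the slow troponin T, stood at 6.41 in GA+GA and 6.45 in GA+Asp, and was highest in LG21+Asp at 6.46. Tnni2, the fast troponin I, stood at 8.38 in GA+GA, 8.42 in LG21+GA, 8.37 in GA+Asp, 8.35 in Tep+Asp and 8.37 in LG21+Asp. It was the striated gene that was lower in GA+Asp than in GA+GA, by less than 0.01.

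The Z disc genes anchor thin filaments. Actn2, an alpha-actinin, stood at 7.11 in GA+GA, 7.05 in LG21+GA, 7.26 in GA+Asp, 7.11 in Tep+Asp and 7.13 in LG21+Asp. GA+Asp was its high array, by 0.14 over GA+GA. Actn3, the alpha-actinin of fast fibres, stood at 6.80 on all 5 arrays and was the member with no difference at all. Myoz1, a calcineurin-binding protein of the Z disc, stood at 6.59 in LG21+Asp and at 6.55 on the other arrays.

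The genes of excitation and calcium handling were all higher in GA+Asp than in GA+GA, 4 of 4. Atp2a1, the calcium pump of the fast sarcoplasmic reticulum (probe set 10567879), stood at 6.88 in GA+GA, 6.85 in LG21+GA, 7.21 in GA+Asp, 6.87 in Tep+Asp and 6.88 in LG21+Asp. It was 1.26-fold higher in GA+Asp than in GA+GA. Casq1, the calcium store protein calsequestrin, was higher by 0.12, and Ryr1, the calcium release channel, by 0.08. Chrna1, a subunit of the acetylcholine receptor at the nerve-muscle junction, stood at 5.89 in GA+GA, 5.95 in LG21+GA, GA+Asp and Tep+Asp, and 6.05 in LG21+Asp. Its highest array was therefore LG21+Asp, and GA+GA was its lowest.

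Both genes of energy supply were higher. Ckm (probe set 10550698) stood at 8.08 in GA+GA, 8.08 in LG21+GA, 8.56 in GA+Asp, 8.10 in Tep+Asp and 8.10 in LG21+Asp. It was 1.39-fold higher in GA+Asp than in GA+GA. Mb, the oxygen-binding myoglobin, stood at 6.83 in GA+GA, 6.84 in LG21+GA, 7.08 in GA+Asp, 6.83 in Tep+Asp and 6.87 in LG21+Asp, a difference of 0.25 that stayed just under 1.2-fold. Myog, myogenin, a transcription factor of muscle differentiation, stood at 6.30 in LG21+GA and 6.28 on the other 4 arrays.

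**Figure D1:**
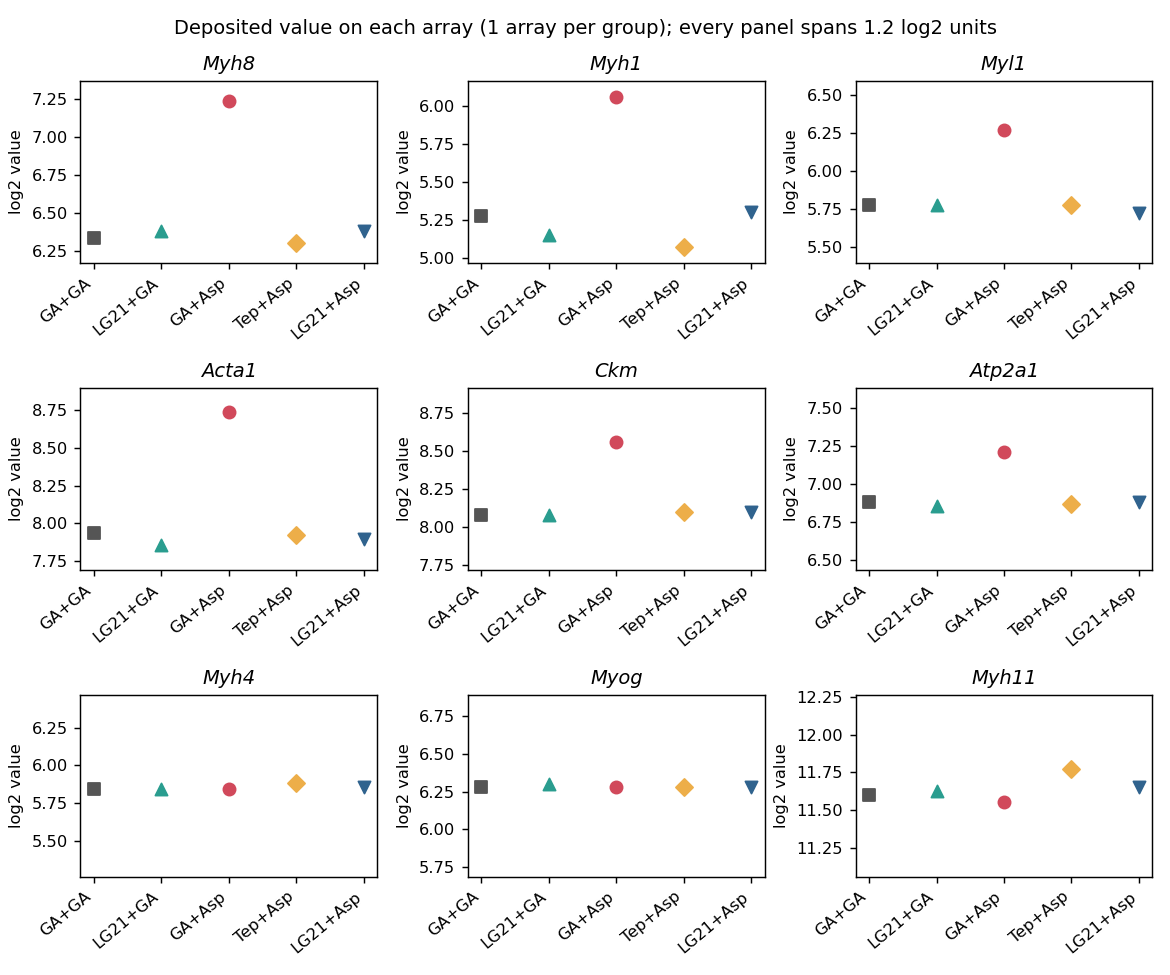
Values of 8 striated genes and the smooth muscle gene Myh11 on each of the 5 arrays (x axis: array, y axis: log2 value, every panel spanning the same 1.2 units). Points are single arrays, and GA+Asp is the high point for Myh8, Myh1, Acta1, Myl1, Ckm and Atp2a1 but not for Myh4, Myog or Myh11.

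Past 1.5-fold, 3 of the 22 striated genes were higher in GA+Asp than in GA+GA (Myh8, Acta1 and Myh1), against 0.0602% of all 19938 genes, which is 12 genes. Past 1.2-fold the count was 6, against 0.933% of all genes. A filter that kept the 9969 genes with a mean level over 7.41, the midpoint of the gene means, left 0.0401% of genes past 1.5-fold higher. Only Acta1, Tnni2, Tnnt3 and Ckm of the striated genes passed that filter, and Acta1 alone of the 4 was past 1.5-fold. The members were chosen with this contrast known, so nothing is read from these counts. The median difference was 0.10 for the striated genes and 0.00 for all genes, while the mean for the striated genes was 0.22.

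Over the 5 arrays, GA+Asp was strictly the highest for 14 of the 22 striated genes and the lowest for none, against 21.7% of all genes with GA+Asp highest. GA+GA was the highest for 0 of them, Tep+Asp for 1, LG21+GA for 2 and LG21+Asp for 4. GA+Asp lay at least 1.2-fold above every other array for 0.246% of all genes, 49 in number, and 6 of these were the striated genes above. All 5 arrays lay within 0.1 of each other for 8 striated genes and 6 smooth genes, against 52.9% of all genes.

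**Figure D2:**
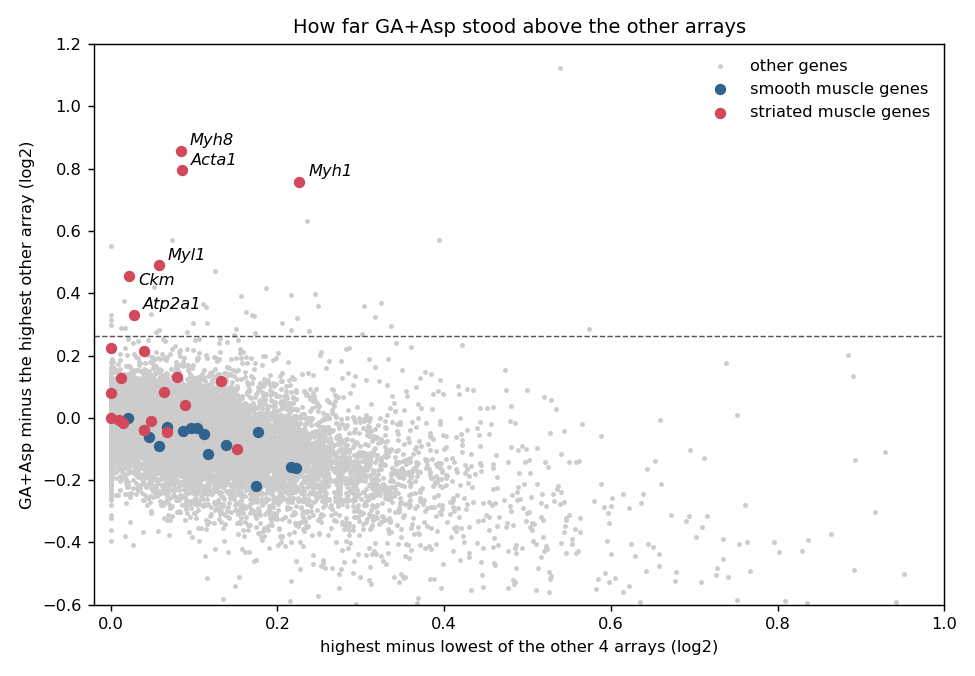
Each point is a gene, with the span of the arrays other than GA+Asp on the x axis and the gap of GA+Asp above the highest of them on the y axis, both in log2 units. Acta1, Myh8, Myh1, Myl1, Ckm and Atp2a1 lie above the dashed line at 1.2-fold, and the smooth genes lie under it, with 19702 genes drawn and 236 outside the axes.

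The LG21+Asp and Tep+Asp arrays asked whether a pretreatment before aspirin went with different levels. Both have the GA+Asp array as their baseline, while aspirin alone has it as the array set against GA+GA. A high value in GA+Asp therefore reads as higher in aspirin alone and as lower in the other comparisons. The 3 comparisons are thus not independent of each other. The same 6 striated genes were past 1.2-fold in each of the 3, against 1.28% of all genes past 1.2-fold lower in LG21+Asp and 0.792% in Tep+Asp. In LG21+Asp against GA+Asp, 14 striated genes were lower, 5 higher and 3 equal, with a median of -0.10. Over all 19938 genes 7597 were lower, and over the 9969 filtered genes 5803. Myh8 differed by -0.86, Acta1 by -0.84 and Myh1 by -0.76. Past 1.5-fold lower were 3 striated genes, against 0.266% of all genes and 0.321% of filtered genes.

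In Tep+Asp against GA+Asp, 16 striated genes were lower, 1 was higher and 5 were equal, with a median of -0.14. Over all 19938 genes 7778 were lower, and over the 9969 filtered genes 5162. Myh1 differed by -0.98, Myh8 by -0.94 and Acta1 by -0.81. The same 3 genes were past 1.5-fold lower, against 0.0802% of all genes and 0.0401% of filtered genes.

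The comparisons without the GA+Asp array showed no striated or smooth gene past 1.2-fold. In LG21+GA against GA+GA, which gives the bacterium without aspirin, 8 striated genes were higher, 8 lower and 6 equal, and 2.09% of all genes were past 1.2-fold in either direction. In LG21+Asp against Tep+Asp 13 striated genes were higher, 3 lower and 6 equal, against 2.49% of all genes past 1.2-fold. In LG21+Asp against LG21+GA, aspirin after the bacterium, 14 striated genes were higher, 3 lower and 5 equal, and 2.32% of all genes were past 1.2-fold. The striated median in this last comparison was 0.01, against 0.10 for aspirin after gum arabic. Over all genes 38.8%, 39.5% and 39.2% were higher in LG21+GA against GA+GA, LG21+Asp against Tep+Asp and LG21+Asp against LG21+GA.

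The interaction is the difference of LG21+Asp from LG21+GA minus the difference of GA+Asp from GA+GA. The interaction is therefore not independent of the 3 comparisons with GA+Asp, which enters with a minus sign. It was -0.91 for Myh8, -0.75 for Acta1 and -0.63 for Myh1, and these 3 striated genes were past 1.5-fold lower, against 0.411% of all genes. Of the 22 striated genes 15 lay below 0 and 6 above, with a median of -0.08. Over all 19938 genes 9457 lay below 0, with a median of 0. Among the smooth genes 10 lay below 0 and 4 above, with a median of -0.03, and none was past 1.2-fold. The filtered genes, among which all 14 smooth genes fall, had the same median of -0.03, with 6496 of 9969 below 0.

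The 14 smooth muscle genes were at much higher signal, from 7.94 to 12.36 on the arrays, and all passed the filter. Their largest differences were seen in Tep+Asp, which was strictly the highest array for 11 of the 14, against 17.2% of filtered genes. LG21+GA was the highest for Tpm2 and Cnn1, and LG21+Asp for Lmod1. In Tep+Asp against GA+Asp 14 of 14 were higher, against 28.9% of filtered genes. The smooth median was 0.06 against 0.00 for all genes, and 0 were past 1.2-fold, against 1.52% of all genes. No smooth gene was past 1.2-fold in any of the comparisons run.

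Among the smooth contractile genes, Myh11, the smooth muscle myosin heavy chain, stood at 11.60 in GA+GA, 11.62 in LG21+GA, 11.55 in GA+Asp, 11.77 in Tep+Asp and 11.66 in LG21+Asp. Tep+Asp was its high array, 1.16-fold above GA+Asp, which was its low array. Myl9, the regulatory light chain that the kinase phosphorylates, stood at 11.74 in GA+GA, 11.79 in LG21+GA, 11.79 in GA+Asp, 11.88 in Tep+Asp and 11.80 in LG21+Asp. GA+GA was the low array for Myl9. Acta2 spanned 0.02, from 12.34 in LG21+Asp to 12.36 in Tep+Asp. Actg2, the enteric smooth muscle actin, lay between 11.65 and 11.72, and Mylk, the light chain kinase itself, between 9.39 and 9.48. Tpm2, a tropomyosin also made in striated muscle, lay between 9.75 and 9.82.

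The actin-binding genes also had Tep+Asp above GA+Asp, 5 of 5. Smtn, smoothelin, which marks contractile smooth muscle cells, was 1.12-fold higher in Tep+Asp than in GA+Asp. Lmod1, which nucleates actin filaments in smooth muscle, stood at 8.04 in GA+GA, 8.17 in LG21+GA, 8.17 in GA+Asp, 8.20 in Tep+Asp and 8.22 in LG21+Asp. Its low array was GA+GA, and its difference of 0.13 with aspirin alone was the greatest among the 14. Cnn1, calponin, an inhibitor of the myosin motor, stood at 11.45 in GA+GA, 11.48 in LG21+GA, 11.445 in GA+Asp, 11.46 in Tep+Asp and 11.37 in LG21+Asp. LG21+Asp was its low array. Tagln, transgelin, lay between 10.57 and 10.67, and Synpo2, an actin-bundling protein, between 9.01 and 9.12.

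The intermediate filament genes Des and Synm are shared by smooth and striated muscle. Des, desmin, stood at 11.01 in GA+GA, 11.04 in LG21+GA, 11.01 in GA+Asp, 11.13 in Tep+Asp and 11.04 in LG21+Asp. Synm, synemin, stood at 8.66 in GA+GA, 8.62 in LG21+GA, 8.67 in GA+Asp, 8.71 in Tep+Asp and 8.67 in LG21+Asp. Myocd, myocardin, a coactivator of serum response factor, stood at 8.0 in GA+GA, 7.97 in LG21+GA, 8.0 in GA+Asp, 8.16 in Tep+Asp and 7.94 in LG21+Asp. Tep+Asp was the high array for all 3.

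**Figure D3:**
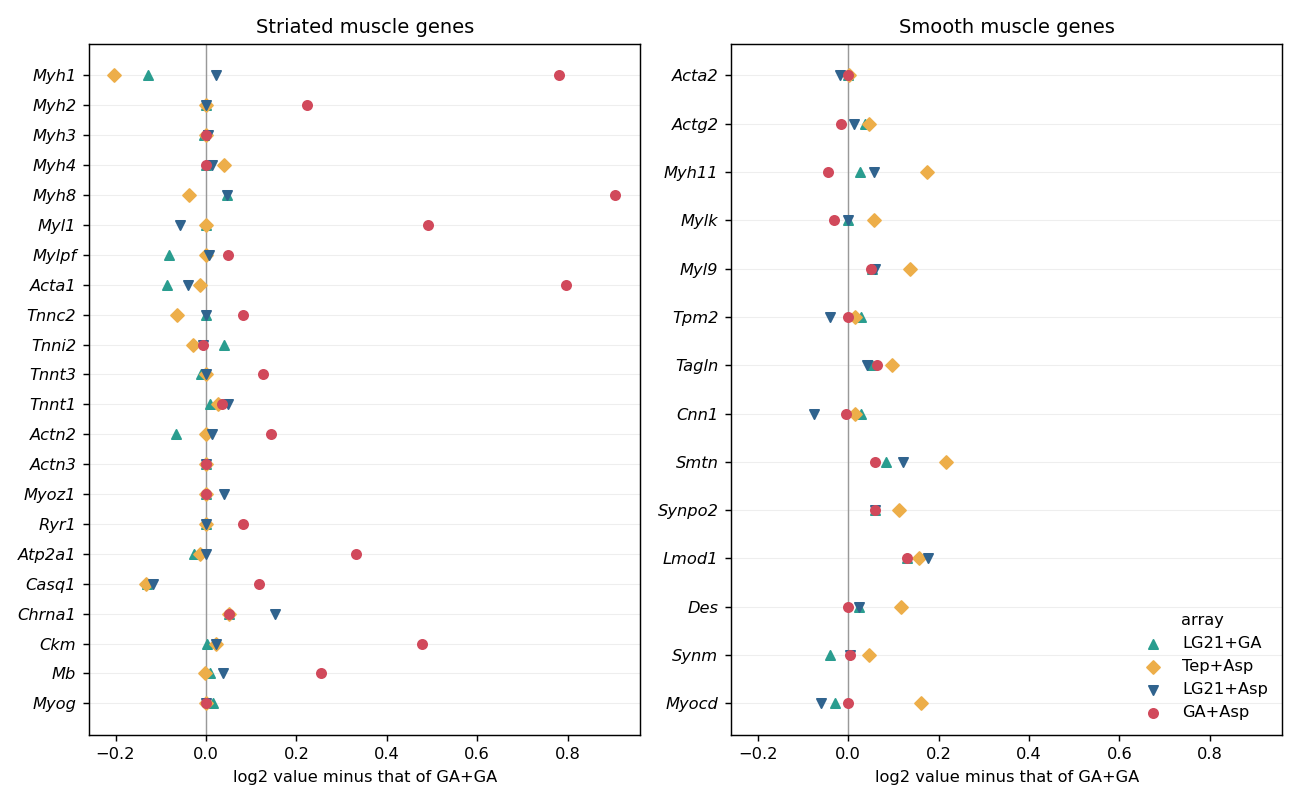
Difference of each of the 36 muscle genes from the GA+GA control in the other 4 arrays (x axis: log2 difference, y axis: gene, grouped into striated and smooth). Points are single arrays, and the points farthest above 0 belong to GA+Asp in Myh8, Acta1, Myh1, Myl1, Ckm and Atp2a1.

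Set side by side, the striated and smooth medians differed by 0.10 in GA+Asp against GA+GA, by -0.11 in LG21+Asp against GA+Asp and by -0.19 in Tep+Asp against GA+Asp. In the comparisons without GA+Asp the difference between the medians was -0.03 for LG21+GA against GA+GA, 0.07 for LG21+Asp against Tep+Asp and 0.01 for LG21+Asp against LG21+GA. The log2 of the summed linear level of the 22 striated genes was 11.60 in GA+Asp and between 11.31 and 11.33 on the other arrays. For the 14 smooth genes it was 14.70 in Tep+Asp and between 14.62 and 14.65 on the others. The 8 striated genes that were not strictly highest in GA+Asp were Tnni2, Actn3, Myog, Myh3, Myh4, Myoz1, Chrna1 and Tnnt1. No test of the difference between the lists was possible with 1 array per group.

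**Figure D4:**
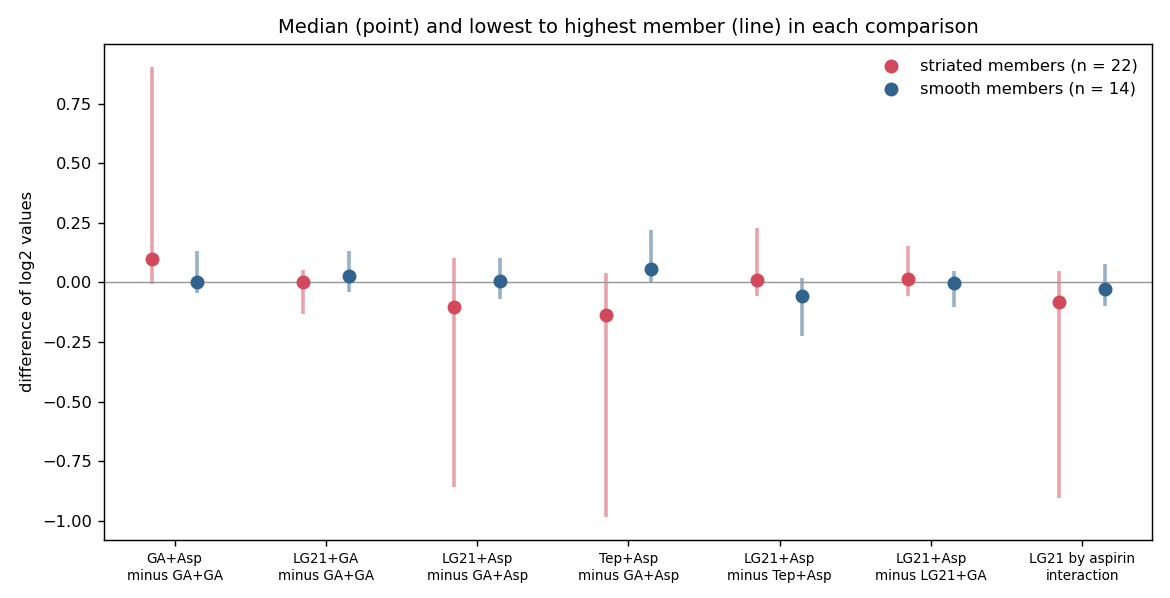
Difference of the 22 striated and the 14 smooth genes in each comparison (x axis: comparison, y axis: difference of log2 values), with the median as a point and the lowest to the highest gene as a line. The striated median lies at 0.10 in GA+Asp against GA+GA and at -0.14 in Tep+Asp against GA+Asp, while the smooth median lies at 0.06 in the latter.

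Striated muscle genes outside the 22 members, on a list of 70 of which 68 were measured, did not move as a body. With aspirin alone 31 were higher, 20 lower and 17 equal, with a median of 0.00, against 42.4% of all genes higher. Past 1.2-fold, 6 were higher and 0 lower, against 0.933% of all genes past 1.2-fold higher. Neb, the nebulin that runs along the thin filament, stood at 6.40 in GA+GA and 6.97 in GA+Asp, a difference of 0.57. Xirp2, a protein of muscle attachment sites, was higher by 0.51, the giant spring protein titin (Ttn) by 0.43 and muscle glycogen phosphorylase (Pygm) by 0.40. Only 10 of the 68 passed the filter on mean level.

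Lists split by fibre type share some genes with the members. The fast fibre list of 14 genes had 9 higher and 2 lower in GA+Asp than in GA+GA, with a median of 0.10. Over all genes 42.4% were higher. Every gene of the fast list except Pvalb (-0.17) and Mybpc2 (0.16) is a member, so this list mostly repeats the values above. The slow fibre list of 11, which holds no member, had 1 higher and 5 lower, with a median of 0.00. The higher gene was the light chain Myl3 at 0.39. The fast and slow lists thus differ in how many members they hold, and the part of this in their contrast was not tested. The 11 cardiac genes had a median of 0.00, with 5 higher and 3 lower and none past 1.2-fold. The 10 genes of developing fibres had 5 higher and 2 lower, and Myh8 was the one past 1.2-fold.

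Among 47 measured smooth muscle genes outside the members, Tep+Asp was above GA+Asp for 36 and below for 8, with a median of 0.07. The filter passed 40 of the 47, and 28.9% of all filtered genes were higher. With aspirin alone 28 were higher and 11 lower, against 58.3% of filtered genes higher. The median was 0.01, and none was past 1.2-fold.

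Markers of other cell types also differed between the arrays, and their part in the muscle values was not tested. Hepatocyte markers were lowest in GA+Asp for 12 of 15 genes, and 14 of 15 were lower there than in GA+GA, against 2338 of 9969 filtered genes. Their median difference was -3.02, and 13 were past 1.5-fold lower, against 170 of all 19938 genes. The log2 of their summed level was 13.34 in GA+Asp against 14.71 in GA+GA and between 13.54 and 14.37 on the other arrays. In GA+Asp that sum came mostly from Apoa1 and Ttr, which were near level with GA+GA (0.03 and -0.06). Squamous epithelium markers are 18 genes of the lining of the mouse forestomach and oesophagus. They were highest in Tep+Asp for 13, against 14.3% of all genes, and lowest in LG21+Asp for 15, against 15.9%. The log2 of their summed level was 13.47 in Tep+Asp, 12.95 in LG21+GA, 12.93 in GA+GA, 12.70 in GA+Asp and, lowest, 11.69 in LG21+Asp.

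Tep+Asp was the highest array for 11 of the 14 smooth genes, against 17.2% of filtered genes. Endothelial and fibroblast markers were likewise highest in Tep+Asp for 13 of 14 genes. Their median difference between Tep+Asp and GA+Asp was 0.15, and the log2 of their summed level was 14.03 in Tep+Asp and between 13.86 and 13.88 on the other arrays. For the 13 gastric epithelium markers the median difference of GA+Asp from GA+GA was 0.00, with 6 higher, 5 lower and 2 equal. The differences ran from -0.09 to 0.28. Bhlha15 had the highest and was the 1 gene past 1.2-fold, against 0.933% of all genes past 1.2-fold higher. The 7 measured adipocyte markers had a median of -0.01, and the 5 measured markers of red cells and blood had -0.07.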

How the data were processed

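The deposited values are RMA expression values (robust multi-array average, which corrects background, normalizes and summarizes probes). The labels credit them to Expression Console, whereas the design text names another program, the Exon Array Computational Tool. Their scale was taken as log2 from the range of the deposited values, and the authors' normalization was kept. No software version or genome build is given in the sources used here. Columns of other samples numbered 0.

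Probe sets that named 1 gene were used, and for a gene with several the set with the highest mean was kept. Outdated symbols of 8 listed genes were replaced through RefSeq synonyms. Log2 differences were computed for 6 array pairs and for the interaction of LG21 with aspirin, and genes past 1.2-fold and 1.5-fold were counted. Filtered genes had a mean above 7.41, the median over genes. No test was run and no p-value is given, because each group has 1 array. The members and lists were chosen with earlier results of these data known. Values on every array are given for members past 1.2-fold in any comparison and for the highest and lowest member of each role group, and others by range. Up to 4 genes of a list are named, those with the largest differences between GA+Asp and GA+GA, and any other gene named from a list was chosen after its values were seen.

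The alternatives tried were a filter at the 75th percentile or none, a 2-fold threshold, the mean of a list, filtered members alone, the mean of a gene's probe sets, quantile normalization and cyclic loess with 3 iterations (limma 3.58.1 in R 4.3.3), leaving out genes and other baseline arrays. Tables were made with Python 3.11.15, numpy 2.4.6 and pandas 2.3.3. The counting was tested on simulated data.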

Additional observations from a re-analysis of the deposited data

How the results depend on the processing

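The comparisons with GA+Asp are given in the order aspirin alone, LG21+Asp, Tep+Asp and interaction. The count of filtered striated genes past 1.5-fold was 1 in each of the 4, and became 3 with no filter, 0 with the filter at the 75th percentile, 0 past 2-fold and 2 past 1.2-fold. With the mean of the list in place of the median, the striated value was 0.22, -0.22, -0.24 and -0.20, and striated minus smooth was 0.21, -0.22, -0.32 and -0.17. With the members that passed the filter only, the striated value was 0.30, -0.29, -0.29 and -0.29, and striated minus smooth was 0.30, -0.30, -0.35 and -0.26. That last alternative rests on 4 striated genes. The 14 striated genes highest in GA+Asp became 3 with filtered members only and 0 at the 75th percentile, above which no striated gene lay, so the values of 0 at that filter come from an empty list. Under quantile normalization, cyclic loess, leaving out genes and other baseline arrays, 122 list values and 72 gene values stayed within 0.05 of the reported value or, for counts, within 1.5 times. All 72 gene values come from the quantile and loess settings. The deposited values were already normalized by RMA, so these settings could move little and are a weak check. Sign turned for 4 list values and 2 gene values, all at most 0.0136 in size as reported and at most 0.0185 after, and a turn was counted as a reversal only from 0.1 for a list and 1.2-fold for a gene. The mean of probe sets could change nothing, because every member had 1. The baseline arrays were chosen after seeing the data. No paired analysis was possible because each group has 1 array and no replicate number.

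With 1 array per group there is no error for any value. Most striated genes lie below the median of all genes, and detection is not recorded.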

Other observations

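Outside the muscle lists, a few cell types of the gut wall were also measured. Markers of the interstitial cells of Cajal, the pacemakers of gut muscle, differed between GA+Asp and GA+GA by a median of 0.03 over 6 genes. Their receptor Kit stood at 9.54 in GA+GA, 9.61 in LG21+GA, 9.69 in GA+Asp, 9.62 in Tep+Asp and 9.62 in LG21+Asp, and the chloride channel Ano1 at 9.59 in both GA+GA and GA+Asp. For enteric neurons and glia, 12 measured genes had a median difference of 0.05, with 8 higher and 2 lower, against 42.4% of all genes higher. The neuropeptide gene Vip was the largest of them, at 7.86 in GA+GA and 8.15 in GA+Asp, with the other arrays between 7.93 and 7.95.

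The 49 genes at least 1.2-fold higher in GA+Asp than on every other array held 6 striated members, 5 other striated genes (Eno3, Myl3, Neb, Pygm and Ttn) and 38 genes on no list used here. Only 11 of the 49 passed the filter on mean level. The 38 include many chemosensory receptors and small RNAs. Chil5, which did not pass the filter, had the largest gap of the 49 (1.12). Among filtered genes that are no member, with small RNAs and predicted genes left out, the largest gaps of GA+Asp above the highest other array were those of Zfp979 (0.40), which passed the filter only with GA+Asp counted, Tmem171 (0.39), Tmem267 (0.36) and the glycogen phosphorylase Pygm (0.31). The muscle enolase Eno3 had a gap of 0.28. Tep+Asp had its largest gaps in genes of the cornified epithelium, among them Lce1e (0.84), Spink5 (0.82), Krtdap (0.72) and loricrin (Lor, 0.69).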
